A study of Homo sapiens with 12 samples.

Results

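The CLK kinases CLK1, CLK2, CLK3 and CLK4 and the SR splicing factors SRSF1, SRSF2, SRSF3, SRSF5, SRSF6 and SRSF7 were followed in synchronized HCT116 cells over 12 Affymetrix U133 Plus 2.0 arrays. The members were the probe sets annotated to 1 of these 10 genes and to no other gene, which gave 31 of the 54675 probe sets on the array. HCT116 cells are an established line from a human colorectal carcinoma. They were stopped before DNA replication by a double thymidine block and then released with nocodazole, which depolymerizes microtubules and holds cells in mitosis, or with DMSO, its vehicle. The 4 nocodazole arrays were taken hourly between 7 and 10 h from release, and the 8 DMSO arrays at 0, 2, 4 and 6 h and at the same 4 hours. Every condition had 1 array, so all values come from the same cell line, without a replicate, and all cells had been through the thymidine block.

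CLKs are dual-specificity kinases of the nucleus that phosphorylate the arginine-serine repeats of SR proteins and so help to set where those proteins sit and how they act. SR proteins bind exonic enhancers in pre-mRNA and help the spliceosome to recognize splice sites. Many CLK and SR genes also control their own transcripts by alternative splicing, with retained introns in CLK genes and poison exons in SR genes, and some of the resulting transcripts are removed by nonsense-mediated decay. Probe sets of the same gene may therefore read different transcripts, and each is described separately. Where in its gene a probe set lies was not analysed here. The suffix _s_at marks probe sets whose probes are shared by several transcripts, and _x_at marks those with probes that may cross-hybridize.

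SRSF2 had no probe set of its own, since its 3 probe sets also carry the microRNA gene MIR636. The remaining 9 genes held the 31 probe sets, and 22 of these reached a log2 signal of 5 on at least 2 arrays and were tested among the 15030 probe sets that did so. Of the 22, 8 belonged to SRSF1, 3 to SRSF3, 3 to SRSF7, 2 to SRSF5, 2 to SRSF6 and 1 to each CLK gene. The 9 that were not tested lay between 1.82 and 4.81 on all 12 arrays: CLK3 238072_at, CLK4 1568836_at, 228751_at and 241403_at, SRSF3 232392_at, 235324_at and 237485_at, SRSF5 210077_s_at and SRSF7 211439_at. Of the 22 probe sets, 19 were at 5 or above on all arrays. CLK4 210346_s_at and SRSF1 201741_x_at were so on 9 arrays, and SRSF1 239384_at was so on 6, all of them at 7 h or later.

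The arrays differed in ways that bear on every value. Over the 15030 probe sets the median log2 signal was 8.90, 8.99, 8.39 and 8.28 with nocodazole in order of time, against 8.59 to 9.13 with DMSO. Over the probe sets that were not tested the median was 2.69 and 2.68 with nocodazole at 9 and 10 h, against 2.49 to 2.59 on the other arrays, so the bright probe sets were lower and the dim ones higher on these 2 arrays. The part of this shift in the differences between treatments was not tested. Differences are given as deposited, and for called members also after quantile normalization, which gives every array the same distribution. Some are also given less the median difference of all probe sets. At 4 h with DMSO the 18S rRNA probe sets averaged 8.32, against 3.55 to 4.05 on the other arrays. Of 8 epithelial markers, EPCAM, KRT8, KRT18, KRT19 and CDH1 were at 10.4 or above on all arrays, while CDX2, VIL1 and CDH17 stayed at 4.30 or below. Of 10 markers of blood, stromal and endothelial cells, 9 were below 5 throughout and COL1A1 lay between 7.75 and 8.60.

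Of the members, CLK4 differed most between nocodazole and DMSO at 9 and 10 h, and SRSF1 had the most probe sets. SRSF3 had a called DMSO course as deposited in 202899_s_at alone, and SRSF5 was the member lower at 6 to 8 h. The regions just before the transcription starts are shown for these 4 members. Each is the 250 bases before the start in the RefSeq annotation of GRCh38.p14, written 5′ to 3′ on the strand of the gene, at chr5:178627051-178627300 (minus strand), chr17:58007247-58007496 (minus strand), chr6:36594112-36594361 (plus strand) and chr14:69766892-69767141 (plus strand). Capitals mark letters found by searching both strands for the E-box CACGTG, the ETS motif CCGGAAG, the NF-Y motif CCAAT, the box TATAAA bound by the general transcription machinery, the cell cycle homology region TTTGAA and the cyclic AMP response element TGACGTCA.
CLK4 promoter: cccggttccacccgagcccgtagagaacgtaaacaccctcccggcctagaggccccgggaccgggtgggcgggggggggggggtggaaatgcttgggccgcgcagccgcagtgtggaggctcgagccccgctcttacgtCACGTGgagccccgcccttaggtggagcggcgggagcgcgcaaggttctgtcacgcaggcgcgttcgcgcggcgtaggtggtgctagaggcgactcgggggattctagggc
SRSF1 promoter: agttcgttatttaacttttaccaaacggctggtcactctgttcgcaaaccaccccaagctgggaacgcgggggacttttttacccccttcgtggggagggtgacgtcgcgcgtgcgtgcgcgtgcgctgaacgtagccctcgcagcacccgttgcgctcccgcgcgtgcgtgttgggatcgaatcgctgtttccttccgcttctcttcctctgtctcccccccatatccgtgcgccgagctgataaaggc
SRSF3 promoter: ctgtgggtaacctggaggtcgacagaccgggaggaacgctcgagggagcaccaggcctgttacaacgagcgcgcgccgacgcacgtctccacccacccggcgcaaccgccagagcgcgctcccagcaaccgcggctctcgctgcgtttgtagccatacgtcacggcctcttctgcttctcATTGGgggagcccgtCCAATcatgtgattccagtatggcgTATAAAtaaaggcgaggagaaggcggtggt
SRSF5 promoter: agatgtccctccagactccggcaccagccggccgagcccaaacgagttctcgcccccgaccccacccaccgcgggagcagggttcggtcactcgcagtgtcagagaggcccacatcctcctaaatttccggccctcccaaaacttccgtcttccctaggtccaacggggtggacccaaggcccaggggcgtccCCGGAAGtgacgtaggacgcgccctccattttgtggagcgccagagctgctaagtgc
The CLK4 window held CACGTG, which was also found in the CLK2 window and in 6.34% of 35116 RefSeq windows of this length. The SRSF5 window held CCGGAAG, as did 8.52% of all windows. In the SRSF3 window CCAAT was found on each strand, and TATAAA lay closer to the start, against 32.0% of all windows with CCAAT and 10.7% with TATAAA. None of these letters was found in the SRSF1 window. CLK1 and SRSF6 windows held TTTGAA, as did 13.3% of all windows, and no member window held TGACGTCA, which was found in 1.65% of all windows.

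As deposited, CLK4, SRSF1, SRSF3 and SRSF7 had probe sets that changed over the 8 DMSO times. The members' median range between the lowest and highest DMSO time was 0.92 on the log2 scale, against 0.86 over all 15030 probe sets. A natural spline of time was called, that is, had an adjusted p under 0.05, for 9 of the 22 member probe sets, against 24% of all probe sets. These were CLK4 210346_s_at, SRSF1 201742_x_at, 208863_s_at, 211784_s_at, 226419_s_at and 227164_at, SRSF3 202899_s_at, and SRSF7 213649_at and 214141_x_at. The highest DMSO time was 10 h for 15 of the 22, against 40.0% of all probe sets, and the lowest was 4 h for 11, against 22.5% of all. Of the DMSO arrays, that at 10 h had the highest median over the tested probe sets (9.13) and that at 4 h the lowest (8.59). Probe sets of the same gene are not independent in these counts. After quantile normalization the course was called for 13 members and for 38.1% of all probe sets. The added members were CLK2 203229_s_at (adjusted p = 0.043), SRSF1 239384_at (0.034), SRSF5 203380_x_at (0.033) and SRSF6 208804_s_at (0.0068). With array medians centred 13 members and 40.8% of all were called. They included CLK2 (adjusted p = 0.049), both SRSF5 probe sets (0.0060 and 0.0096) and SRSF1 229246_at (0.043) and 239384_at (0.035), but not SRSF3 202899_s_at. As deposited, without the 0, 8 or 10 h array the number of members called was 5, 4 and 3. Of all probe sets 9.00%, 14.8% and 15.7% were then called. SRSF3 202899_s_at and SRSF7 214141_x_at were the members called with each time left out in turn.

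Among the CLK kinases, CLK4 alone had a called DMSO course as deposited, and it was the lowest of them relative to DMSO in late nocodazole. Values are log2 signals, with nocodazole at 7, 8, 9 and 10 h and with DMSO first at 0, 2, 4 and 6 h and then at those 4 hours. CLK4 210346_s_at was at 5.71, 5.96, 4.18 and 4.06 with nocodazole. With DMSO it was at 3.43, 5.62, 5.13, 5.36, 6.20, 6.45, 6.03 and 7.04. It was thus lowest at the end of the thymidine block and highest at 10 h with DMSO, and at all 4 shared hours nocodazole was below DMSO. The fitted course spanned 3.13 (adjusted p = 0.030) and was not called without the 0, 4, 8 or 10 h array. Nocodazole at 9 and 10 h averaged 4.12 ± 0.09 and DMSO 6.53 ± 0.71 (SD, n = 2 each), a difference of -2.41 ± 0.31 (SE, adjusted p = 0.0016). This was -1.94 less the median of all probe sets and -2.51 after quantile normalization, and it was called under each of the 10 alternatives run, with adjusted p up to 0.016. The 2 nocodazole values lie below 5, in the range of the probe sets that were not tested.

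CLK1 214683_s_at was at 8.83, 9.28, 8.81 and 8.93 with nocodazole. With DMSO it was at 9.03, 9.86, 9.33, 9.23, 9.24, 9.62, 9.54 and 9.67. Nocodazole was below DMSO at all 4 hours as deposited, but not at 10 h after quantile normalization (0.049). The DMSO course of CLK1 was not called (fitted range 0.52, adjusted p = 0.59). Its difference at 9 and 10 h was -0.74 ± 0.20 (SE, adjusted p = 0.018), or -0.26 less the median of all, and -0.13 after quantile normalization (adjusted p = 0.51).

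CLK2 203229_s_at was at 7.56, 7.59, 7.10 and 7.20 with nocodazole. With DMSO it was at 7.88, 7.90, 7.59, 7.57, 7.71, 7.46, 7.58 and 8.18. The groups lay close together at 7 and 8 h. At 9 and 10 h the nocodazole values were the lowest of all arrays, and the 10 h DMSO value was the highest. The difference at 9 and 10 h was -0.73 ± 0.25 (SE, adjusted p = 0.043), which became -0.12 after quantile normalization (adjusted p = 0.65) and was not called without the 9 h or the 10 h arrays. CLK3 202140_s_at was at 9.23, 9.25, 9.02 and 9.21 with nocodazole. With DMSO it was at 9.29, 9.23, 9.15, 9.18, 9.55, 9.20, 9.20 and 9.67. CLK3 was nearly level apart from the 7 and 10 h DMSO arrays, and its difference at 9 and 10 h was -0.33 ± 0.21 (SE, adjusted p = 0.23) as deposited and 0.27 after quantile normalization (adjusted p = 0.12).

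**Figure D1:**
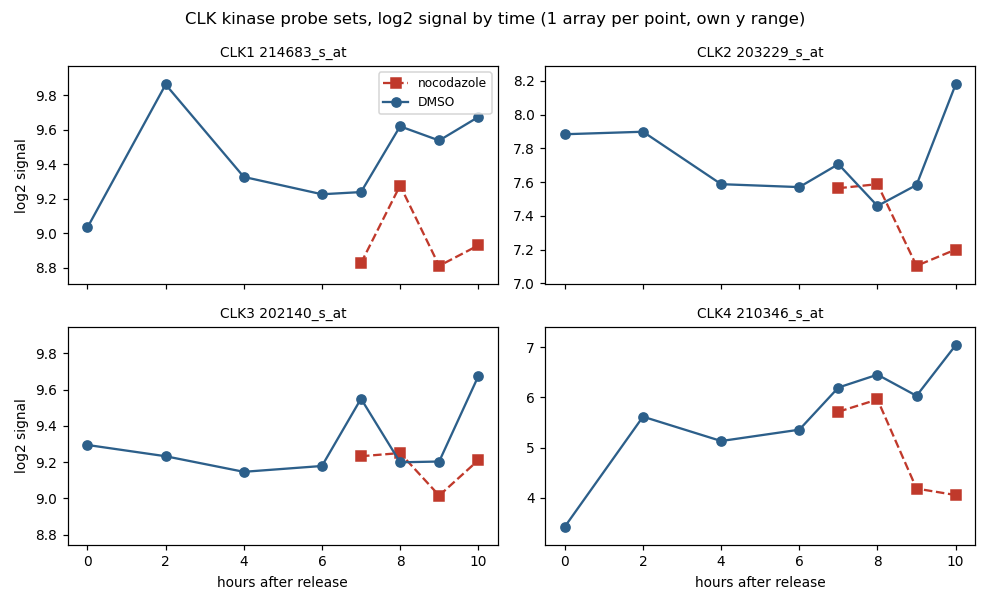
Log2 signal (y axis, own range in each panel) against hours after release (x axis) for the CLK1, CLK2, CLK3 and CLK4 probe sets that were tested, with nocodazole as red squares and DMSO as blue circles, each point being 1 array. CLK4 drops to 4.18 and 4.06 with nocodazole at 9 and 10 h, against 6.03 and 7.04 with DMSO.

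SRSF1, an SR protein that acts in both constitutive and alternative splicing, had 8 probe sets, and they did not follow 1 pattern. With DMSO, 227164_at, 226419_s_at and 229246_at were low at 4 and 6 h and high at 7 to 10 h. SRSF1 227164_at was at 8.31, 8.58, 8.00 and 8.08 with nocodazole, against 8.02, 7.15, 5.15, 6.10, 8.21, 8.38, 8.80 and 8.94 with DMSO. SRSF1 226419_s_at was at 10.19, 10.46, 10.20 and 9.83 with nocodazole, against 9.90, 9.13, 8.65, 8.61, 10.60, 10.58, 10.43 and 10.69 with DMSO. SRSF1 229246_at was at 7.42, 7.42, 7.47 and 7.38 with nocodazole, against 7.00, 6.97, 5.66, 5.40, 8.55, 8.68, 9.19 and 8.14 with DMSO. All 3 had their 2 lowest DMSO values at 4 and 6 h, and each stood over 1 log2 unit higher on the 7 h DMSO array than on the 6 h DMSO array. The fitted course spanned 3.48 for 227164_at (adjusted p = 0.010) and 2.13 for 226419_s_at (adjusted p = 0.027), and for 229246_at it spanned 3.06 without being called (adjusted p = 0.080).

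SRSF1 239384_at was at 5.43, 5.81, 4.41 and 4.09 with nocodazole, against 3.88, 3.91, 4.33, 4.13, 7.13, 6.84, 5.42 and 6.42 with DMSO. It stayed below 5 on all DMSO arrays up to 6 h and was above 5 on all later ones, so it passed the level filter through its later times. The course was not called as deposited (fitted range 2.71, adjusted p = 0.073), but it was after quantile normalization (2.50, adjusted p = 0.034).

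The bright SRSF1 probe sets moved less. SRSF1 211784_s_at, the brightest, was at 13.60, 13.65, 13.65 and 13.73 with nocodazole, against 13.96, 13.79, 13.53, 13.59, 13.60, 13.69, 13.74 and 14.28 with DMSO. SRSF1 208863_s_at was at 11.85, 11.98, 12.09 and 12.13 with nocodazole, against 12.25, 12.11, 11.66, 11.94, 11.95, 12.05, 12.16 and 12.51 with DMSO. SRSF1 201742_x_at was at 12.52, 12.40, 12.39 and 12.41 with nocodazole, against 11.93, 11.996, 11.59, 11.95, 12.45, 12.59, 12.56 and 12.88 with DMSO. All 3 were lowest at 4 h and highest at 10 h with DMSO, with fitted ranges of 0.67 for 211784_s_at (adjusted p = 0.024), 0.65 for 208863_s_at (adjusted p = 0.045) and 1.10 for 201742_x_at (adjusted p = 0.012). Of the 5 SRSF1 probe sets with a called course, all but 211784_s_at lost the call without the 10 h array, and 227164_at did so without the 9 h array as well. SRSF1 211784_s_at lost it without the 0 or the 8 h array, 208863_s_at without any 1 array other than that at 4 h, and 226419_s_at without the 0, 2, 4, 8, 9 or 10 h array.

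SRSF1 201741_x_at was the 1 tested member probe set that was higher with nocodazole at 9 and 10 h as deposited. With array medians centred 6 of the 22 tested members were called higher, and without the level filter 6 of 31. SRSF1 201741_x_at was at 5.20, 5.63, 6.16 and 5.98 with nocodazole, against 4.87, 5.17, 4.99, 4.77, 5.32, 5.36, 5.37 and 5.31 with DMSO. It was thus dim, and the median of the dim, untested probe sets was also higher with nocodazole at 9 and 10 h. The part of that shift in its difference was not tested. The nocodazole values at 9 and 10 h lay above every DMSO value, and that at 7 h below the DMSO value of that hour. The difference at 9 and 10 h was 0.74 ± 0.25 (SE, adjusted p = 0.042), 1.21 less the median of all probe sets and 1.15 after quantile normalization (adjusted p = 0.0087), and it was not called without the 9 h or the 10 h arrays. Its DMSO course was not called (fitted range 0.42, adjusted p = 0.55).

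In the late pair of hours 3 other SRSF1 probe sets were called lower with nocodazole than with DMSO. The remaining ones, 226419_s_at (-0.55), 201742_x_at (-0.32), 211784_s_at (-0.32) and 208863_s_at (-0.23), were lower as deposited without a call. After quantile normalization 211784_s_at was called (-0.28, adjusted p = 0.012), and 208863_s_at was at 0.027. The difference was -1.67 ± 0.35 for 239384_at (SE, adjusted p = 0.0067) and -1.75 after quantile normalization (adjusted p = 0.0049). For 229246_at it was -1.24 ± 0.28 (SE, adjusted p = 0.0090), with -0.62 after quantile normalization (adjusted p = 0.14). For 227164_at it was -0.83 ± 0.22 (SE, adjusted p = 0.016), with -0.18 after quantile normalization (adjusted p = 0.44). SRSF1 239384_at and 227164_at were not called without the 10 h arrays, and 229246_at was not called without the 9 h arrays. At 7 and 8 h the same fit gave -1.36 ± 0.35 for 239384_at (adjusted p = 0.81) and -1.20 ± 0.28 for 229246_at (adjusted p = 0.61). Both were below DMSO at all 4 hours as deposited, but after quantile normalization 229246_at was not at 10 h (0.044).

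**Figure D2:**
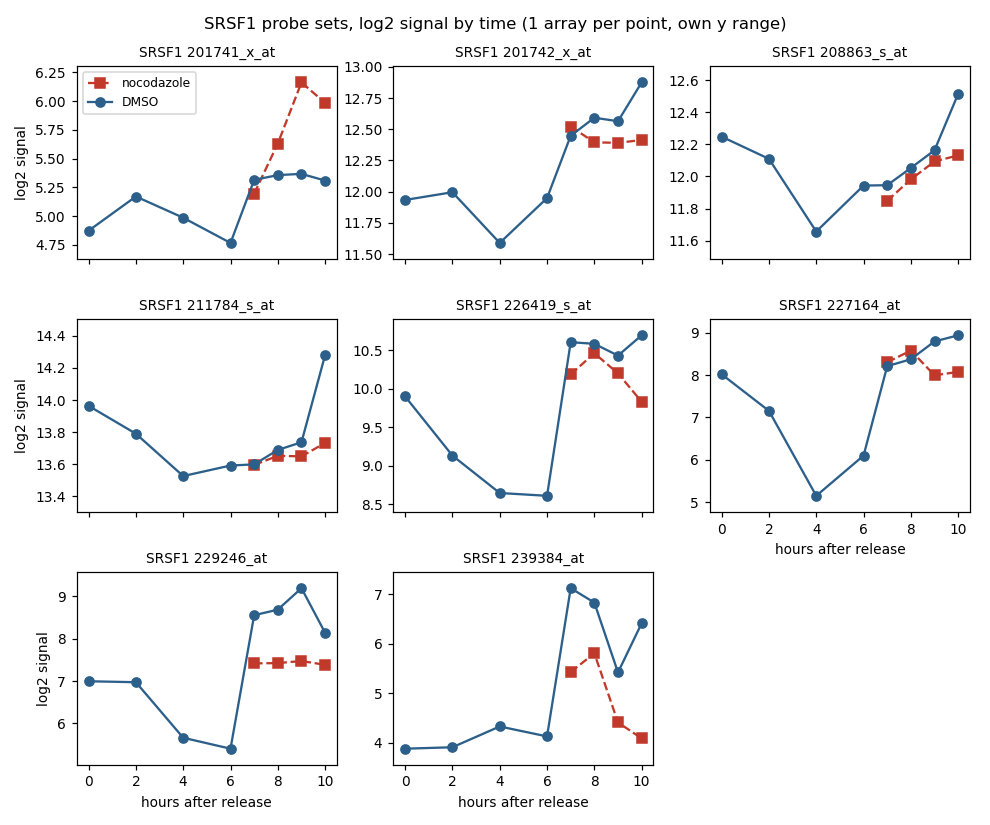
Log2 signal (y axis, own range in each panel) against hours after release (x axis) for the 8 SRSF1 probe sets, with nocodazole as red squares and DMSO as blue circles, each point being 1 array. Probe set 201741_x_at reaches 6.16 and 5.98 with nocodazole at 9 and 10 h, against 5.37 and 5.31 with DMSO, whereas 239384_at is at 4.41 and 4.09 with nocodazole, against 5.42 and 6.42 with DMSO.

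SRSF3, the smallest of the classical SR proteins and a regulator of its own splicing, had its DMSO course called in 202899_s_at alone. In the test of probe sets against the others of their gene, given below, no SRSF3 probe set was called. SRSF3 202899_s_at was at 13.40, 13.43, 13.27 and 13.16 with nocodazole, against 13.01, 13.16, 13.12, 13.32, 13.47, 13.50, 13.56 and 13.83 with DMSO. It climbed from 4 h on at each later DMSO time, with a fitted range of 0.75 (adjusted p = 0.0084), and was called with each DMSO time left out, but not with array medians centred (fitted range 0.34, adjusted p = 0.31). The difference at 9 and 10 h was -0.48 ± 0.13 (SE, adjusted p = 0.019), close to the median of all probe sets, with -0.37 after quantile normalization (adjusted p = 0.0022), 0.18 with array medians centred (adjusted p = 0.45), and no call without the 7, 8 or 10 h arrays. SRSF3 208672_s_at was at 13.89, 13.80, 13.89 and 13.88 with nocodazole, against 13.92, 13.95, 13.79, 13.97, 13.81, 13.96, 13.84 and 14.06 with DMSO. This brightest SRSF3 probe set was nearly level as deposited, with a fitted range of 0.14 (adjusted p = 0.76). With array medians centred its fitted range was 0.35 (adjusted p = 0.24). SRSF3 208673_s_at lay between 11.91 and 12.05 with nocodazole, against 11.95 and 12.42 with DMSO, and was called in neither comparison.

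SRSF5, a classical SR protein, was the 1 member called between 6 to 8 h and 0 to 4 h with DMSO, and it fell. SRSF5 203380_x_at was at 11.15, 11.26, 10.92 and 10.95 with nocodazole, against 11.60, 11.96, 11.49, 10.92, 11.16, 11.14, 11.09 and 11.19 with DMSO. SRSF5 212266_s_at was at 11.84, 11.96, 11.66 and 11.53 with nocodazole, against 12.22, 12.52, 12.08, 11.52, 11.86, 11.81, 11.78 and 11.85 with DMSO. Both peaked at 2 h with DMSO, and every DMSO value at 6 to 8 h lay below every value at 0 to 4 h. The later window minus the earlier one was -0.61 ± 0.14 for 203380_x_at (SE, adjusted p = 0.043) and -0.54 ± 0.14 for 212266_s_at (SE, adjusted p = 0.055). After quantile normalization these were -0.69 (adjusted p = 0.026) and -0.57 (adjusted p = 0.043), and 3 members and 9.93% of all probe sets were called. In this comparison 7.98% of all probe sets were called, 7.42% higher and 0.566% lower at 6 to 8 h. The call of 203380_x_at was lost without any 1 of the 0, 2, 6, 7, 8, 9 or 10 h arrays (adjusted p from 0.051 to 0.14). The differences were then -0.70 to -0.47. Without the 6 h array 7 members were called, against 20.1% of all probe sets. Nocodazole minus DMSO at 9 and 10 h was -0.21 ± 0.16 for 203380_x_at (SE, adjusted p = 0.30) as deposited, and 0.20 after quantile normalization (adjusted p = 0.13).

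SRSF6 varied little. SRSF6 206108_s_at was at 13.40, 13.27, 13.19 and 13.15 with nocodazole, against 13.14, 13.27, 13.21, 13.16, 13.30, 13.28, 13.29 and 13.52 with DMSO. SRSF6 208804_s_at was at 12.87, 12.83, 12.78 and 12.68 with nocodazole, against 12.85, 12.78, 12.73, 12.83, 12.91, 13.02, 12.95 and 13.34 with DMSO. Both were highest on the 10 h DMSO array. Of the 2, 208804_s_at was called at 9 and 10 h, with a difference of -0.41 ± 0.15 (SE, adjusted p = 0.049), -0.24 after quantile normalization (adjusted p = 0.023), 0.25 with array medians centred (adjusted p = 0.24), and no call without the 7, 8 or 10 h arrays.

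SRSF7, an SR protein with a zinc knuckle, again differed between its probe sets. SRSF7 213649_at was at 6.85, 7.32, 6.18 and 5.14 with nocodazole, against 6.42, 6.67, 5.63, 6.56, 7.72, 7.91, 7.35 and 7.70 with DMSO. SRSF7 214141_x_at was at 13.42, 13.44, 13.47 and 13.36 with nocodazole, against 12.86, 12.78, 12.52, 12.83, 13.35, 13.42, 13.44 and 13.71 with DMSO. With DMSO both were lowest at 4 h and stood higher at 7 to 10 h than at any earlier time, with fitted ranges of 1.73 for 213649_at (adjusted p = 0.043) and 1.06 for 214141_x_at (adjusted p = 0.0063). The course of 213649_at lost its call without any 1 array other than that at 2 h. With nocodazole 213649_at fell at 9 and 10 h, the difference being -1.86 ± 0.34 (SE, adjusted p = 0.0042), with -1.45 after quantile normalization (adjusted p = 0.010) and no call without the 10 h arrays. For 214141_x_at the difference was -0.16 ± 0.13 (SE, adjusted p = 0.35). It was -0.061 after quantile normalization (adjusted p = 0.37) and 0.51 with array medians centred (adjusted p = 0.032). SRSF7 201129_at was at 9.05 to 9.69 with nocodazole, against 8.85 to 9.96 with DMSO, and was called in neither comparison.

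**Figure D3:**
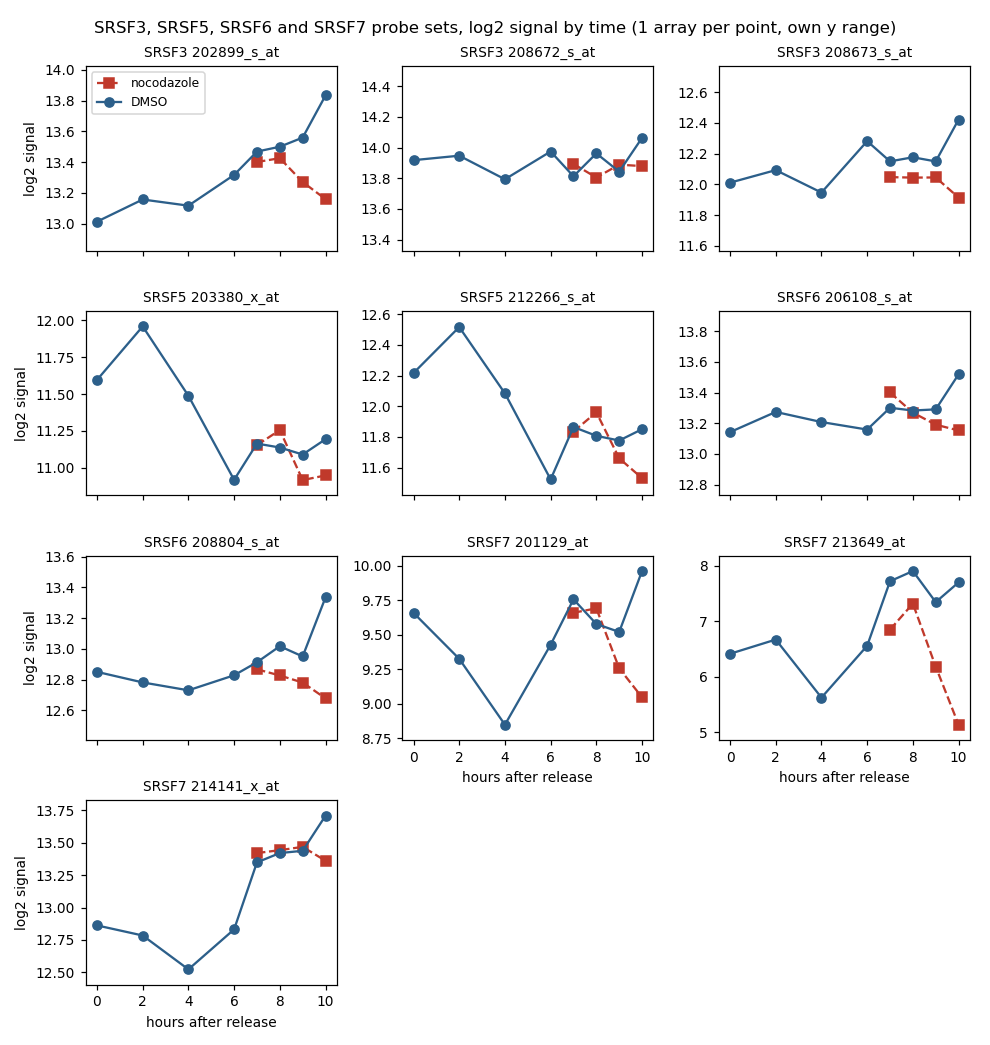
Log2 signal (y axis, own range in each panel) against hours after release (x axis) for the SRSF3, SRSF5, SRSF6 and SRSF7 probe sets, with nocodazole as red squares and DMSO as blue circles, each point being 1 array. SRSF5 peaks at 2 h with DMSO, at 11.96 and 12.52, and SRSF7 213649_at reaches its lowest value of 5.14 with nocodazole at 10 h.

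The comparison of nocodazole with DMSO asks how cells held in mitosis differ from cells that pass through it. In bulk arrays fewer cells of a state and less RNA per cell cannot be told apart. Late in the arrest, at 9 and 10 h, 10 of the 22 member probe sets were called, 9 lower and 1 higher with nocodazole, against 44.3% of all probe sets (40.5% lower and 3.76% higher). The members' median difference was -0.37 and that of all probe sets -0.48. The members called lower were CLK1, CLK2, CLK4, 3 SRSF1 probe sets, SRSF3 202899_s_at, SRSF6 208804_s_at and SRSF7 213649_at. The values of both treatments at 9 and 10 h did not overlap for 19 of the 22, nor for 81.1% of all probe sets. After quantile normalization 7 members were called, 6 lower and 1 higher, against 34.8% of all probe sets. With array medians centred 6 members were called higher and 4 lower, against 29.4% and 13.9% of all probe sets. CLK4, SRSF1 239384_at and SRSF7 213649_at were called lower, and SRSF1 201741_x_at higher, under each of these 3 scalings. Without the 10 h arrays, which left 1 array per treatment in the late pair, only CLK4 and SRSF1 229246_at kept the call. The members' median difference was then -0.18, against -0.28 over all probe sets. Without the 9 h arrays these medians were -0.60 and -0.65.

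The earlier hours looked different. At 7 and 8 h no member was called by limma, against 0.0133% of all probe sets, and SRSF1 229246_at and 239384_at had an unadjusted p under 0.05. Over 7 to 10 h together 0 of 15030 probe sets were called, with 1488 of all and 6 of the member probe sets at an unadjusted p under 0.05. Nocodazole was below DMSO at each of the 4 hours for 11 of the 22 member probe sets, against 15.4% of all probe sets. Several of these 11 are probe sets of the same gene, SRSF1. After quantile normalization it was so for 6 members, and the share over all probe sets was not computed. The change of the difference between 7 and 8 h and 9 and 10 h was called for CLK4 alone among the members, against 10.5% of all probe sets (9.07% lower and 1.39% higher), and after quantile normalization for 2 members, against 8.47% of all. For CLK4 it was -1.93 ± 0.44 (SE, adjusted p = 0.036), -1.44 less the median change of all, and -2.04 after quantile normalization (adjusted p = 0.029). It was not called without the 10 h arrays (-1.36). Without the 9 h arrays the members' median change was -0.40, against -0.66 over all probe sets. Between 9 to 10 h and 6 to 8 h with DMSO, limma called 0 of the 15030 probe sets, and 1 member (SRSF3 202899_s_at) and 813 of all probe sets had an unadjusted p under 0.05.

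**Figure D4:**
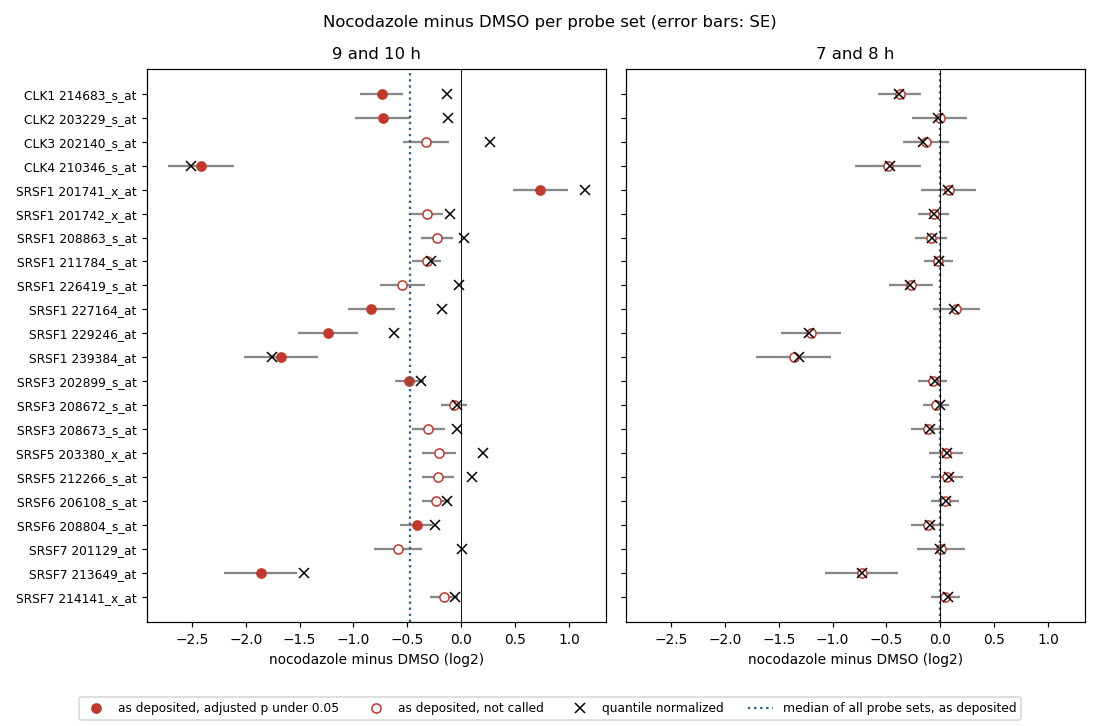
Nocodazole minus DMSO on the log2 scale (x axis) for each of the 22 member probe sets (y axis), at 9 and 10 h (left) and at 7 and 8 h (right). Circles are the deposited values with their SE, filled where the adjusted p is under 0.05, crosses the values after quantile normalization, and the dotted line the median of all probe sets (-0.48 at 9 and 10 h); CLK3, both SRSF5 probe sets, SRSF1 208863_s_at (0.027) and SRSF7 201129_at (0.0077) are negative as deposited and positive after quantile normalization at 9 and 10 h.

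Whether probe sets of 1 gene moved apart was tested on the value of each minus the mean of the other tested probe sets of its gene, which could be formed for 18 member probe sets and 9728 in all. At 9 and 10 h 3 of the 18 were called, against 18.5% of all (9.49% higher and 9.05% lower). SRSF1 201741_x_at rose against the other SRSF1 probe sets by 1.47 ± 0.22 with nocodazole (SE, adjusted p = 0.025). In SRSF7, 213649_at moved against the other 2 by -1.49 ± 0.29 (SE, adjusted p = 0.036) and 214141_x_at by 1.07 ± 0.25 (SE, adjusted p = 0.050, just under the threshold). After quantile normalization these were 1.57 (adjusted p = 0.018), -1.43 (adjusted p = 0.049) and 0.66 (adjusted p = 0.12). In all, 4 of the 18 were then called, against 18.7% of all. The other 2 were SRSF1 239384_at (-1.75, adjusted p = 0.041) and SRSF7 201129_at (0.77, adjusted p = 0.040). Calls within a gene are not independent, since each probe set is part of the mean that the others are set against. By themselves, SRSF7 213649_at differed by -1.86 and 214141_x_at by -0.16 as deposited. In the other contrasts limma called none of the 18, against 0.935% of all at 6 to 8 h against 0 to 4 h and 0% elsewhere. At an unadjusted p under 0.05 there were 2 of the 18 at 6 to 8 h against 0 to 4 h, against 2572 of all 9728. There were 0 of the 18 at 9 to 10 h against 6 to 8 h. The count was 4 at 7 and 8 h (246 of all) and 7 at 7 to 10 h (757 of all). For the change between hours it was 2 (2539 of all). These counts are not independent within a gene either.

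Probe sets of the same gene were alike to different degrees over the 8 DMSO arrays, given as a description. Pearson's r was 0.99 between the 2 SRSF5 probe sets and 0.87 between the 2 of SRSF6. Among the 3 of SRSF7 it was 0.80 to 0.93, and among the 3 of SRSF3 0.41 to 0.83. Within SRSF1, r was 0.94 between 226419_s_at and 227164_at and 0.93 between 208863_s_at and 211784_s_at, but 0.11 between 211784_s_at and 239384_at. These values share the arrays and their differences in median level.

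The other genes of the pathway were taken from lists of splicing genes, with the brightest probe set standing for each gene. Chosen in the same way over all 9130 genes, 38.3% were called lower at 9 and 10 h, with a median of -0.44, and 20.4% changed over the DMSO course. Of 14 other SR protein kinases, phosphatases and carriers that were tested, 6 were called lower at 9 and 10 h and none higher (median -0.40), and 5 changed over the DMSO course. DYRK1A, a dual-specificity kinase of splicing factors, was lower by -1.19 ± 0.24 (SE, adjusted p = 0.0057) and by -0.57 after quantile normalization (adjusted p = 0.014). HIPK3 was lower by -0.96 and DYRK2 by -0.80, against -0.37 and -0.18 after quantile normalization, where neither was called. SRPK2, which phosphorylates SR proteins in the cytoplasm, was at 10.12, 10.18 and 9.95 at 6, 7 and 8 h with DMSO, against 9.08, 9.31 and 9.29 at 0, 2 and 4 h. That is 0.86 ± 0.13 higher in the later window (SE, adjusted p = 0.022). SRPK1, its close relative, had a called course with a fitted range of 0.85 (adjusted p = 0.017), below those of TNPO3 (1.24) and SRPK2 (1.07).

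Of 4 other SR proteins (median -0.35), SRSF4 was called lower at 9 and 10 h, at 10.03 and 10.13 with nocodazole, against 10.72 and 10.99 with DMSO. The difference was -0.78 ± 0.17 (SE, adjusted p = 0.0085), with -0.27 after quantile normalization (adjusted p = 0.065). For these lists, the share of all genes called lower was 38.3% (median -0.44). Of 25 SR-related splicing proteins 8 were called lower (median -0.28). Among them were SCAF4 at -1.44, LUC7L2 at -0.85 and SNRNP70, a core protein of the U1 snRNP, at -0.81. Of 39 core spliceosome genes 20 were called lower (median -0.53), with the helicases DHX16 at -1.40 and DHX8 at -1.35 and the snRNP protein SNRNP40 at -1.24. Of 26 hnRNP proteins 3 were called lower (median -0.20), with HNRNPLL at -1.26, RALY at -0.82 and HNRNPA3 at -0.56, and of 10 genes of nonsense-mediated decay and the exon junction complex 1 was, UPF1, at -0.996 (median of the list -0.38). Of the genes named here, SRSF4, LUC7L2 (-0.26), RALY (-0.23) and HNRNPA3 (-0.16) lost the call after quantile normalization. SCAF4, SNRNP70, DHX16, DHX8, SNRNP40, HNRNPLL and UPF1 kept it, with smaller differences. None of these lists had a gene called higher as deposited. After quantile normalization the counts lower and higher were 0 and 0 for the other SR proteins, 2 and 5 for SR-related proteins, 2 and 2 for kinases and phosphatases, 10 and 1 for the core spliceosome, 4 and 2 for hnRNP proteins, and 2 and 1 for nonsense-mediated decay, against 17.3% and 17.1% of all genes. With array medians centred more were higher than lower in each list, from 1 against 0 for the other SR proteins to 14 against 1 for hnRNP proteins, as over all genes (32.5% against 11.5%), and HNRNPA3 turned to 0.11. At 7 and 8 h no gene of these lists was called. The DMSO course was called for 0 of the 4 other SR proteins, 7 of the 25 SR-related proteins and 4 of the 39 core spliceosome genes. It was called for 3 of the 26 hnRNP proteins and 3 of the 10 genes of nonsense-mediated decay, against 20.4% of all genes.

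The genes whose brightest probe set followed that of a member most closely over the 12 arrays are given as a description, with Pearson's r. CLK4 was most like GADD45B (0.95), a stress-induced gene, B4GALT2 (0.94) and THAP9-AS1 (0.94). CLK1 was most like KLF10 (0.86), CLK2 most like SAP30L (0.97) and CLK3 most like ATP6V0C (0.95). SRSF7 was most like DNAJA1 (0.98), a co-chaperone, and SRRM2 (0.98), a splicing factor with arginine-serine repeats. SRSF1 was most like PHF14 (0.96), SRSF3 most like NFKBIB (0.90), SRSF5 most like MAFF (0.92) and SRSF6 most like TAF5L (0.93).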

How the data were processed

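Total RNA of synchronized HCT116 cells was hybridized to 12 Affymetrix U133 Plus 2.0 arrays, 4 with nocodazole and 8 with DMSO, 1 per condition. The authors deposited log2 signals per probe set, computed with GCRMA. Its version is not given in the sources used here, and the values leave unknown whether the probes were quantile normalized. No column belonged to another sample (0 of them).

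Symbols came from GEO's platform annotation, which gave 1 symbol to 41097 of the 54675 probe sets, several to 1801 and none to 11777. The 15030 tested, of 9130 genes, had 1 symbol and reached log2 5 on 2 or more arrays. Members, lists and tests were chosen with earlier results of these data known.

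All of these probe sets were fitted with limma 3.58.1 (R 4.3.3). Its variance prior followed the intensity, and p-values were adjusted by Benjamini and Hochberg's method over all probe sets, with a threshold of 0.05. The DMSO course was an F test of a natural cubic spline (3 degrees of freedom), and its fitted range is the highest minus the lowest fitted value. Windows of 0 to 4, 6 to 8 and 9 to 10 h shared a fit. Nocodazole and DMSO were compared with the hour as a block, over 7 to 10 h in 1 fit, and for each pair of hours and the change between them in another. With 1 array per condition, the spread behind each p is that of neighbouring times, which are not replicates, and the number of arrays limits the precision. The fits were tested on simulated data.

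The brightest probe set of each member, and each member probe set that passed a test, is given on every array. Of each list up to 3 called genes with the largest change were named, and for each member up to 3 genes with the highest r. Alternatives were other scalings (quantile normalization, array medians centred), level filters (none, or log2 7), 1 value per gene, a prior without the trend, a spline of 2 degrees of freedom, narrower windows, 1 spread for all arrays, fits without the block, and fits without each time. Tables were made with pandas 2.3.3 and numpy 2.4.6 and plots with matplotlib 3.10.9 (Python 3.11.15). Amino acid sequences and probe positions were not analysed here.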

Additional observations from a re-analysis of the deposited data

Results flagged for a closer look

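CLK4 210346_s_at was flagged because its difference between nocodazole and DMSO itself changed between the pairs of hours. Nocodazole minus DMSO was -2.41 in the later pair (9 and 10 h), against -0.49 in the earlier (7 and 8 h). The interaction gave a change of -1.93 ± 0.44 (SE, adjusted p = 0.036).

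SRSF1 227164_at was flagged because, as deposited, every nocodazole array moved one way at the earlier hours and the opposite way at the later ones. After quantile normalization this pattern was lost, with 0.26, -0.0041, -0.34 and -0.020 at 7, 8, 9 and 10 h. As deposited, nocodazole minus DMSO was 0.095 and 0.20 in the earlier pair (7 and 8 h), and -0.80 and -0.87 in the later (9 and 10 h). The change between them was -0.98 ± 0.31 (SE, adjusted p = 0.069), which was not past the threshold, and -0.31 after quantile normalization (adjusted p = 0.42).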

How the results depend on the processing

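Values of single member probe sets were recomputed 399 times over the alternatives. They kept direction and side of the threshold 285 times, lost the call 79 times, gained it 14 times and reversed 21 times. All reversals were of differences at 9 and 10 h, the only comparison recomputed for all 22 members. The other recomputed values were fitted ranges of called DMSO courses, which cannot reverse, the SRSF5 203380_x_at window difference and the CLK4 change between hours. Members that were not called in the other comparisons are thus not covered. At 6 to 8 h against 0 to 4 h, 6 members were below 0 as deposited and 12 with medians centred. After quantile normalization and with array medians centred, 5 of the 22 members reversed: CLK3 202140_s_at (0.27 and 0.34), SRSF1 208863_s_at (0.027 and 0.44), SRSF5 203380_x_at (0.20 and 0.46), SRSF5 212266_s_at (0.10 and 0.45) and SRSF7 201129_at (0.0077 and 0.076). With medians centred, 14 did in all, the others being SRSF1 201742_x_at (0.35), SRSF1 211784_s_at (0.35), SRSF1 226419_s_at (0.12), SRSF3 202899_s_at (0.18), SRSF3 208672_s_at (0.60), SRSF3 208673_s_at (0.36), SRSF6 206108_s_at (0.43), SRSF6 208804_s_at (0.25) and SRSF7 214141_x_at (0.51). Without the 10 h arrays, SRSF3 208672_s_at (0.045, with a range of -0.18 to 0.045 over the hours left out) and SRSF7 214141_x_at (0.030, with a range of -0.35 to 0.030) reversed. Centring moves every probe set of an array by the same amount, and the median difference of all probe sets at 9 and 10 h was then 0.19, against -0.48 as deposited and -0.02 after quantile normalization. Of all calls at 9 and 10 h, 565 were higher and 6087 lower as deposited, 2270 and 2959 after quantile normalization, and 4424 and 2089 with medians centred. At 6 to 8 h against 0 to 4 h they were 1115 and 85, 978 and 514, and 833 and 1060. For the change between hours they were 209 and 1363, 515 and 758, and 1563 and 885.

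Counts of members called that moved were, for the DMSO course (9 as reported), 4 without the level filter, and 3 with 1 probe set and 3 with the mean per gene, which by construction test 9 genes. For 6 to 8 h against 0 to 4 h (1) they were 3 after quantile normalization, 2 with medians centred, 0 without the filter, 2 with the filter at 7, 0 with 1 probe set per gene, 0 without the intensity trend, 8 with narrower windows and 3 with a shared spread. Quantile normalization without DMSO 4 h gave 2 and without DMSO 10 h 0, both chosen after seeing the data. For nocodazole at 7 to 10 h (0), a shared spread gave 3. At 7 and 8 h (0), medians centred gave 2 and the filter at 7 gave 1. At 9 and 10 h (10), 1 probe set per gene gave 3 and the mean 5. For the change between hours (1), quantile normalization, medians centred and no time block gave 2 each and no filter 8. Of probe sets against the others of their gene (3), the filter at 7 gave 1.

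Over all probe sets, calls of the DMSO course (3600) were 5728 after quantile normalization, 6130 with medians centred, 2240 without the filter, 1993 with 1 probe set per gene and 2294 with the mean. For 6 to 8 h against 0 to 4 h (1200) they were 1893 with medians centred, 9 without the filter, 552 with 1 probe set per gene, 746 with the mean, 2756 with narrower windows, 2394 with a shared spread, and 248 after quantile normalization without DMSO 10 h. For 9 to 10 h against 6 to 8 h (0), no filter gave 7. At 7 to 10 h (0) they were 26 after quantile normalization, 4 with medians centred, 11 with the filter at 7, 3434 with a shared spread and 12 without the time block. At 7 and 8 h (2) they were 16, 81, 0 without the filter, 32 with the filter at 7, 4 with the mean per gene and 1 without the block. At 9 and 10 h (6652) they were 27976 without the filter and 4132 with 1 probe set per gene. For the change between hours (1572) they were 2448 with medians centred, 21408 without the filter, 3233 with the filter at 7, 1004 without the trend and 2903 without the block. Except where a value or the construction shows it, the cause was not tested.

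With each time left out in turn, members called ranged over 3 to 9 for the DMSO course, 0 to 7 for 6 to 8 h against 0 to 4 h, 0 to 0 for 9 to 10 h against 6 to 8 h, 0 to 0 at 7 to 10 h, 0 to 1 at 7 and 8 h, 2 to 15 at 9 and 10 h and 0 to 10 for the change between hours. Over all probe sets the ranges were 1353 to 4212, 0 to 3021, 0 to 1, 0 to 0, 42 to 140, 2568 to 8400 and 448 to 6454. Probe sets near the floor, such as CLK4 and SRSF1 239384_at with nocodazole at 9 and 10 h, have little signal over background, which limits the size of their differences.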

Other observations

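SRSF2, an SR protein whose probe sets could not be assigned to it alone, is given by the 3 probe sets annotated to both SRSF2 and MIR636, with no test. Probe set 200753_x_at was at 12.37, 11.94, 12.24 and 12.28 with nocodazole at 7, 8, 9 and 10 h, against 12.17, 12.54, 12.29, 12.32, 12.21, 12.17, 12.08 and 12.44 with DMSO over the 8 times. Probe set 200754_x_at was at 13.72, 13.53, 13.53 and 13.51 with nocodazole, against 13.93, 13.91, 13.84, 13.94, 13.78, 13.77, 13.79 and 14.07 with DMSO. Probe set 214882_s_at was at 13.68, 13.38, 13.49 and 13.43 with nocodazole, against 13.58, 13.73, 13.67, 13.84, 13.84, 13.69, 13.69 and 13.93 with DMSO. In the last 2 probe sets every nocodazole value lay below the DMSO value of its hour, and in the first the order changed between hours.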
